A study of Mus musculus with 4 samples.

Results

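Synaptic vesicle release was followed through 10 genes of its machinery: the synaptotagmins Syt1, Syt2 and Syt10, the complexins Cplx1, Cplx2 and Cplx3, the SNARE genes Snap25, Vamp1 and Vamp2, and the active zone gene Rims1. They were picked by symbol from the gene names of the deposited count matrices, and all 10 were found, each as 1 of 43348 entries. At a nerve terminal, a vesicle SNARE of the VAMP family pairs with SNAP25 and syntaxin of the plasma membrane to draw the membranes together. Synaptotagmins bind calcium and trigger fusion, complexins bind the assembled SNAREs and both clamp and promote fusion, and RIM proteins gather calcium channels and primed vesicles at the active zone. Several of these proteins come as paralogs, and in the brain Syt2 is known as a sensor of fast, tightly timed synapses and as a marker of terminals of parvalbumin interneurons.

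The study asked how loss of NMDA receptors changes interneurons born in the medial ganglionic eminence (MGE), measured by 10x Genomics single-cell RNA sequencing with unique molecular identifiers (UMIs) that each count 1 transcript whatever its length. All mice carried Nkx2.1-Cre and the Ai14 TdTomato reporter at postnatal days 18 to 20, with Grin1, which encodes the obligatory NMDA receptor subunit, either intact (wt/wt, called WT here) or floxed (fl/fl, called null). TdTomato-positive cells of frontal cortex and hippocampus were sorted, so that both the deletion and the sort rested on where Nkx2.1-Cre had been active, and each replicate pooled several mice. There were 3 WT and 2 null libraries from each region, with replicate 1 made with version 2 of the chemistry and replicates 2 and 3 with version 3.

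The 10 libraries held 177 to 4599 kept cells each, with totals of 1452379 to 43644831 UMIs over the kept cells and medians of 1479 to 9763 UMIs per cell. Hippocampus WT replicate 2 was the shallowest, and cortex null replicate 1 held the fewest cells. In the null replicates of version 3, 9.90% (cortex) and 5.97% (hippocampus) of the cells had at least 30% mitochondrial UMIs and were left out, against at most 0.127% in any WT library. Kept cells of the first replicate had medians of 1838 to 2937 detected genes by library. The sequencing notes of the study list more genes per cell for each of them, and nearly the same as here for the shallowest library. Hippocampus WT replicate 3 also held fewer genes than listed, with a median of 2351. Counts may have been lowered before deposit, but the cause of these gaps was not tested. No pair of libraries shared more than 12 cell barcodes.

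The interneurons were 11057 cells in 12 clusters, clustered without the release genes (Pclo excepted) and named from marker genes. They formed an SST-like class of 6678 cells, with the TH-like cells counted in it, a PVALB-like class of 2219 cells and a class of 2160 cells like neurogliaform cells (NGFC-like). The SST-like class held a shallow cluster of 1210 cells led by Mir6236 and Gm22714, with 593 of its cells from hippocampus WT replicate 2, in which 6 of 6 SST-like markers passed. Of the NGFC-like clusters, the one led by Tenm1 and Pde11a had 510 of its 599 cells from the same library. A cluster of 398 cells led by Oxt, Pcp4 and Avp carried markers of interneurons and of cholinergic cells and was kept out of all classes, by a rule set after seeing the data. It made up 1.95% of kept cells in WT cortex, 2.61% in null cortex, 0.924% in WT hippocampus and 1.30% in null hippocampus. Levels are given in UMIs per 1000000 UMIs (CPM) of a class in a library. Summed over 6 marker genes, oligodendrocyte RNA stood at 1595 ± 1033 CPM (SD, n = 6 WT libraries) in SST-like, 1683 ± 1202 in PVALB-like and 2229 ± 1889 in NGFC-like cells, and its part in the results was not tested.

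Grin1 itself matched the genotype labels in every class. In SST-like cells it stood at 153, 254 and 233 CPM in cortex WT replicates 1, 2 and 3 and at 36.7 and 27.8 CPM in cortex null replicates 1 and 2. In hippocampus the levels were 120, 175 and 157 CPM in WT and 21.3 and 21.7 CPM in null. No null library reached a WT library in any class. The log2 change from WT to null was -2.74 ± 0.329 (SE) in cortical and -2.79 ± 0.331 in hippocampal SST-like cells, with edgeR adjusted p of 0.0298 and 0.0265.

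The 3 interneuron classes of WT mice differed in which release paralogs they held. PVALB-like cells had more Syt2 than SST-like cells (log2 difference 2.70 ± 0.246, SE, 6 WT libraries, and 4.13 without the TH-like cells), more Cplx1 and much less Cplx2 (-3.23 ± 0.119). NGFC-like cells had far more Cplx3 than SST-like cells (5.04 ± 0.221) and more Rims1, but little Vamp1 and next to no Syt2. Snap25 and Vamp2 were abundant in each class and did not pass the test. The class comparison asks whether cells that release the same transmitter carry the same release genes, in 6 WT libraries with the classes compared within each library.

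**Figure D1:**
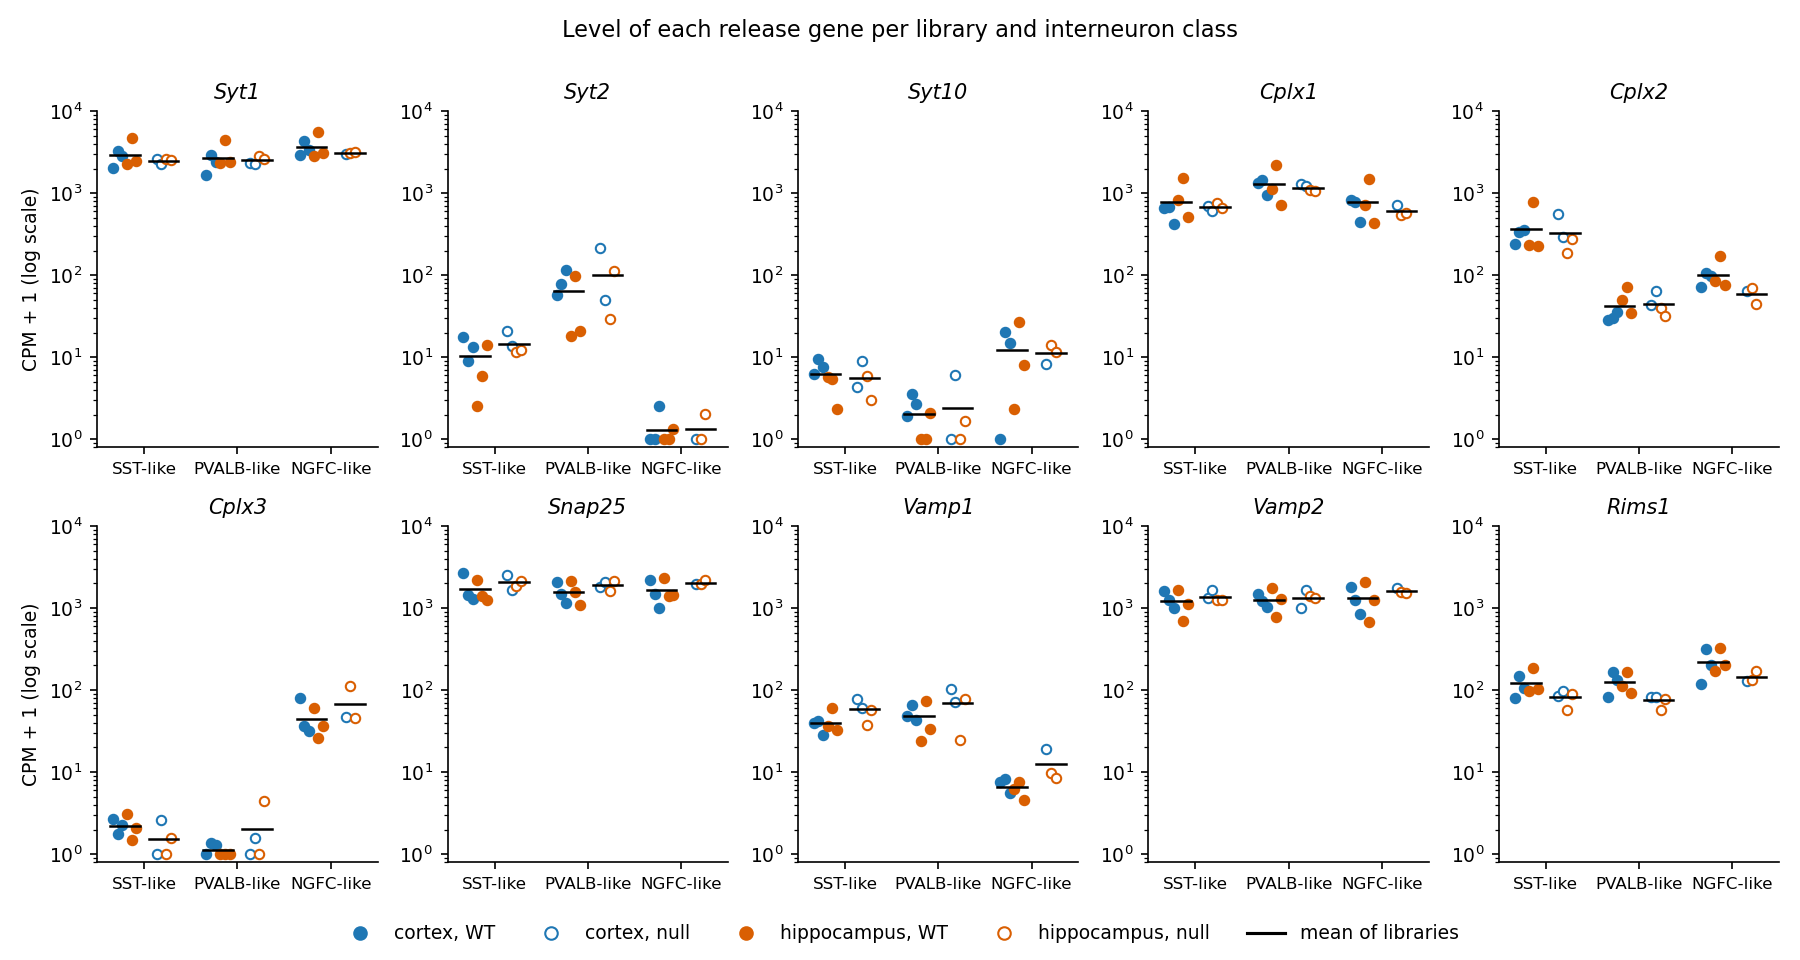
CPM + 1 of each of the 10 release genes on a log axis, with 1 point per library, by interneuron class; filled points are WT, open points null, blue cortex and orange hippocampus, and black lines are means. Syt2 reached 17.3 to 114 CPM in WT PVALB-like cells and at most 1.53 CPM in WT NGFC-like cells, while Snap25 and Vamp2 lay at like levels in the 3 classes.

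Among the synaptotagmins, Syt2 (ENSMUSG00000026452.11) separated the classes most. In the PVALB-like cells it measured 56.4, 77.8 and 114 CPM in cortex WT replicates 1, 2 and 3 and 17.3, 97.7 and 20.1 CPM in hippocampus WT replicates 1, 2 and 3. In the SST-like cells the same libraries gave 16.7, 8.10 and 12.5 CPM and 1.57, 4.92 and 13.1 CPM. The lowest PVALB-like library lay just above the highest SST-like library, and the NGFC-like cells of all 6 libraries together held 2 Syt2 UMIs. Within libraries Syt2 was higher in PVALB-like than in SST-like cells in 6 of 6, with a log2 difference of 2.70 ± 0.246 (SE, edgeR adjusted p = 2.75e-08). It was 4.13 without the TH-like cells and 4.19 without integration. Hippocampus WT replicate 3 had the smallest within-library log2 difference, 0.58, against 1.70 to 4.06 in the others. Its PVALB-like cells also carried the most SST-like markers, 4623 CPM summed over 6 genes with 4318 of them from Sst, where the other WT libraries had 287 to 1139 CPM. The part of these markers in the result was not tested. Against the 2 UMIs of NGFC-like cells, pooled counts gave a ratio of 282 for PVALB-like cells (95% exact interval 77.8 to 2330, counting error only) and 35.4 for SST-like cells (9.74 to 294).

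Syt1, the calcium sensor of fast release in most forebrain neurons, was the most abundant of the 10 genes by UMIs pooled over WT libraries in every class. In cortex WT replicate 1 Snap25 stood higher, at 2651 against 2053 CPM in SST-like and 2077 against 1661 CPM in PVALB-like cells. Over WT libraries Syt1 ranged from 2812 to 5633 CPM in NGFC-like cells with a median of 3246. It ranged from 2053 to 4667 in SST-like cells (median 2661) and from 1661 to 4515 in PVALB-like cells (median 2410). These ranges overlapped between classes, with hippocampus WT replicate 2 highest in each class. Within libraries Syt1 was higher in NGFC-like than in SST-like cells in 6 of 6 (log2 difference 0.34 ± 0.0595 SE, adjusted p = 9.20e-05) and lower in PVALB-like than in NGFC-like cells in 6 of 6 (-0.49 ± 0.060, adjusted p = 1.70e-06). Between PVALB-like and SST-like cells its difference of -0.15 ± 0.0595 did not pass (adjusted p = 0.0670), but it passed without the TH-like cells (-0.25) and without integration (-0.30).

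Syt10, a synaptotagmin known from activity-dependent peptide secretion in olfactory bulb neurons, was sparse. NGFC-like cells held 0 to 25.8 CPM with a median of 10.4, SST-like cells 1.37 to 8.56 with a median of 5.01, and PVALB-like cells 0 to 2.55 with a median of 1.02. The highest values came from hippocampus WT replicate 2 in NGFC-like cells and from cortex WT replicate 2 in the other classes. Syt10 was lower in PVALB-like than in SST-like cells in 6 of 6 libraries (log2 difference -1.97 ± 0.448 SE, adjusted p = 0.00174). It failed the count filter in fits of PVALB-like cells alone, and was in this fit through the other classes. PVALB-like cells held 20 Syt10 UMIs in WT, and their share of cells with a UMI was not above that of oligodendrocyte-like cells. No size of difference is therefore drawn from this call. This call was lost without the TH-like cells, where the difference was -0.42, and at a clustering resolution of 0.6, where it was -1.29, and over 21 alternatives the adjusted p ran from 8.81e-08 to 0.527. The difference between NGFC-like and SST-like cells, 1.28 ± 0.368, passed narrowly (adjusted p = 0.00991) and had its direction in only 4 of 6 libraries. It was 0.89 without hippocampus WT replicate 2 (adjusted p = 0.103), 1.11 without hippocampus WT replicate 3 (adjusted p = 0.0525) and 2.50 without the TH-like cells, and 12 of 21 alternatives did not call it, with adjusted p from 2.96e-05 to 0.107.

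The complexins gave each class its own mixture. Cplx2 (ENSMUSG00000025867.8) measured 238, 337 and 351 CPM in SST-like cells of cortex WT replicates 1, 2 and 3 and 233, 776 and 228 CPM in those of hippocampus. In PVALB-like cells the same libraries held 27.8, 29.5 and 34.2 CPM and 49.0, 71.6 and 33.5 CPM. Every PVALB-like library lay below every SST-like library, and NGFC-like cells lay between, at 71.8 to 170 CPM. Cplx2 was lower in PVALB-like than in SST-like cells by a log2 difference of -3.23 ± 0.119 (SE, adjusted p = 8.84e-14) and lower in NGFC-like than in SST-like cells by -1.78 ± 0.110 (adjusted p = 4.79e-11), each in 6 of 6 libraries.

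Cplx1, a complexin known in the forebrain mainly from inhibitory neurons, went the other way. PVALB-like cells held 728 to 2213 CPM with a median of 1216, NGFC-like cells 435 to 1472 with a median of 747, and SST-like cells 425 to 1518 with a median of 666. The ranges overlapped, with hippocampus WT replicate 2 highest and cortex or hippocampus WT replicate 3 lowest in every class. Within libraries Cplx1 was higher in PVALB-like cells than in SST-like cells (log2 difference 0.78 ± 0.0861 SE, adjusted p = 3.94e-07) and than in NGFC-like cells (0.77 ± 0.0890, adjusted p = 8.03e-07), in 6 of 6 libraries each. In a fit without the library as a block both calls ended, with log2 differences of 0.74 and 0.70. Over 24 alternatives the adjusted p ran from 8.72e-25 to 0.265 for the first and from 2.17e-24 to 0.232 for the second.

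Cplx3, a complexin best known from ribbon synapses of the retina, was found mainly in NGFC-like cells. It measured 78.4, 35.8 and 30.6 CPM there in cortex WT replicates 1, 2 and 3 and 59.1, 24.9 and 35.8 CPM in hippocampus WT replicates 1, 2 and 3. In SST-like cells the 6 libraries gave 0.492 to 2.09 CPM, and in PVALB-like cells they held 3 UMIs in all. NGFC-like cells stood far above SST-like cells in every library (log2 difference 5.04 ± 0.221 SE, adjusted p = 4.11e-13), and the pooled ratio to PVALB-like cells was 155 (95% exact interval 52.5 to 758). The pooled SST-like to PVALB-like ratio was 4.93 (1.57 to 24.9), from 41 and 3 UMIs. In the edgeR fit Cplx3 was lower in PVALB-like than in SST-like cells by a log2 difference of -2.03 ± 0.556 (SE, adjusted p = 0.00751). Cplx3 failed the count filter in fits of SST-like or PVALB-like cells alone, and was in this fit through NGFC-like cells, where it is high. In both classes its share of cells with a UMI was not above that of oligodendrocyte-like cells. No difference between these classes is therefore drawn from this call. The call ended in 15 of 24 alternatives (adjusted p from 0.00491 to 0.0684), among them leaving out any 1 of the 6 libraries. Its adjusted p was 0.0238, 0.0145 and 0.0684 without cortex WT replicate 1, 2 or 3 and 0.0160, 0.0131 and 0.0232 without hippocampus WT replicate 1, 2 or 3.

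Of the SNAREs, Snap25 and Vamp2 did not pass in any class comparison. Snap25, the plasma membrane SNARE cleaved by botulinum toxin A, measured 1262 to 2651 CPM in SST-like, 1078 to 2120 in PVALB-like and 1001 to 2312 in NGFC-like cells. Vamp2, the main vesicle SNARE of the forebrain, measured 703 to 1666, 768 to 1742 and 683 to 2081 CPM in the same order. Their log2 differences between classes lay between -0.12 ± 0.0803 and 0.06 ± 0.0784 (SE). A difference that misses the threshold does not show that the classes are equal.

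Vamp1, a second vesicle SNARE that is prominent in spinal cord and brainstem, was lowest in the NGFC-like class. It held 3.57 to 7.15 CPM there with a median of 5.89, against 23.1 to 73.3 in PVALB-like cells with a median of 44.6 and 27.3 to 59.5 in SST-like cells with a median of 36.8. The NGFC-like range lay below both others in full. Vamp1 was lower in NGFC-like than in SST-like cells by a log2 difference of -2.85 ± 0.203 (SE, adjusted p = 3.92e-10, 6 of 6 libraries). It passed between PVALB-like and SST-like cells with 0.38 ± 0.107 (adjusted p = 0.00900, 5 of 6 libraries), but the call ended in 10 of 24 alternatives, over which the adjusted p ran from 1.02e-05 to 0.632. Among these were the fits without cortex WT replicate 1 (0.41, adjusted p = 0.0222), 2 (0.29, adjusted p = 0.112) or 3 (0.30, adjusted p = 0.110) and without hippocampus WT replicate 2 (0.41, adjusted p = 0.0145). At a resolution of 0.6 the difference was 0.24, and without integration it was 0.73.

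Rims1 (ENSMUSG00000041670.11), which encodes RIM1, was highest in NGFC-like cells. It measured 118, 312 and 203 CPM there in cortex WT replicates 1, 2 and 3 and 169, 323 and 201 CPM in hippocampus WT replicates 1, 2 and 3, against 80.0 to 184 CPM in SST-like and 81.4 to 168 in PVALB-like cells. The ranges overlapped, and version 2 libraries gave the lowest NGFC-like values. Within libraries Rims1 was higher in NGFC-like than in SST-like cells in 6 of 6 (log2 difference 0.90 ± 0.0846 SE, adjusted p = 2.86e-08) and lower in PVALB-like than in NGFC-like cells in 6 of 6 (-0.83 ± 0.0919, adjusted p = 4.32e-07).

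In all, 6 of the 10 release genes passed between PVALB-like and SST-like cells, where 21.9% of the 11048 genes tested passed. These include Cplx3, which was in the fit through NGFC-like cells and read as background in both classes compared. They also include Syt10, which read as background in PVALB-like cells. Between NGFC-like and SST-like cells 7 passed (23.7% of all genes), and between PVALB-like and NGFC-like cells 8 passed (22.7%). Called here means an edgeR adjusted p under 0.01, over all genes tested, and an absolute log2 difference of at least 0.144. The median absolute log2 difference of the 10 was 0.583, 1.09 and 1.14 in these comparisons, against 0.215, 0.263 and 0.295 over all genes. The 10 were chosen with earlier results of these data known, so neither these medians nor the counts test the set against all genes. Both include genes near the floor in a class compared: Syt2 in NGFC-like cells (2 UMIs), and Cplx3 (3 UMIs) and Syt10 (20 UMIs) in PVALB-like cells. The comparisons share their libraries and, in pairs, a class. Of the 21 calls, 11 were kept in each alternative that tested them. Those of Syt10 were tested in 21 of 24 alternatives, and not in the fit without the library as a block. A further 6 calls were lost only in that fit, those of Cplx1, Rims1 and Syt1. Of the 21, 18 had the same direction in every null library with enough cells, and the exceptions were Syt10 between NGFC-like and SST-like cells and Vamp1 and Cplx3 between PVALB-like and SST-like cells.

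Other genes of the release machinery, from a list of 63 of which 57 were tested, were compared in the same fits. Between PVALB-like and SST-like cells 3 were higher and 14 lower in PVALB-like cells, where 21.9% of all genes passed. The active zone and priming group of 19 tested had 6 lower and all 3 of the higher genes, Rimbp2 (log2 difference 0.80 ± 0.199 SE), Rims4 (0.76 ± 0.0879) and Ppfia2 (0.75 ± 0.0905). Among the lower were Unc13c, a priming factor (-5.59 ± 0.251), Synpr, the vesicle protein synaptoporin (-4.31 ± 0.211), the synaptotagmin Syt6 (-2.72 ± 0.341), the calcium sensor Doc2a (-1.78 ± 0.183) and the priming factor Cadps2 (-1.68 ± 0.399). Of 11 calcium sensors 4 were lower, of 13 SNAREs and their partners 2, of 9 vesicle proteins 1 and of 5 membrane retrieval genes 1. Cadps2 was among the leading genes of the cluster led by Th. Its call ended without cortex WT replicate 2 (-1.53) or 3 (-0.996), with DESeq2 (-1.54) and without the library as a block (-1.36), and its difference was -0.48 at a resolution of 0.6, 0.20 without the TH-like cells and 1.02 without integration, where it was called in the opposite direction. The call of Rimbp2 ended without cortex WT replicate 2 (0.76) or 3 (0.82), with DESeq2 (0.81), with no filter (0.78), without the library as a block (0.88), at a resolution of 0.6 (0.69) and with version 3 libraries alone (0.78). That of Syt6 ended at a resolution of 0.6 (-0.47). Those of Rims4, Doc2a and Ppfia2 ended only without the library as a block.

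Against SST-like cells, NGFC-like cells had 8 of the 57 higher and 21 lower, where 23.7% of all genes passed. Sv2c, a vesicle glycoprotein, was higher by 3.93 ± 0.442 on the log2 scale (SE), the RIM-binding protein gene Rimbp2 by 2.99 ± 0.180, the Rab3 effector Rph3a by 1.98 ± 0.205, the scaffold Erc1 by 1.53 ± 0.125 and the priming factor Cadps by 0.86 ± 0.0922. Of 19 active zone and priming genes 5 were higher and 3 lower, of 9 vesicle proteins 1 and 5, and of 5 membrane retrieval genes 2 and 1. Among 11 calcium sensors 7 were lower, and among 13 SNAREs and their partners 5, with 0 higher in both groups. Unc13c (-4.73 ± 0.330), Synpr (-4.33 ± 0.225), Syt17 (-2.52 ± 0.501) and Doc2a (-2.52 ± 0.262) had the largest falls along with Syt6, of which NGFC-like cells held 1 UMI. The call of Syt17 ended without hippocampus WT replicate 3 (-2.38).

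Between PVALB-like and NGFC-like cells 13 of the 57 were higher and 13 lower in PVALB-like cells, where 22.7% of all genes passed. Of 19 active zone and priming genes 3 were higher and 9 lower, of 11 calcium sensors 4 and 1, and of 13 SNAREs and their partners 3 and 0. Of 9 vesicle proteins 2 were higher and 1 lower, and of 5 membrane retrieval genes 1 and 2. Syt17 (3.33 ± 0.509), Rab3b (1.15 ± 0.123), Syt13 (0.94 ± 0.119), Syt7 (0.80 ± 0.12) and Rims4 (0.66 ± 0.104) were the largest rises. Sv2c (-4.44 ± 0.567), Rph3a (-2.61 ± 0.232), Rimbp2 (-2.20 ± 0.197), Erc1 (-1.94 ± 0.145) and Rab3c (-1.26 ± 0.0851) were the largest falls. The call of Rims4 ended without the library as a block (0.68).

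The paralog shares describe how the UMIs of a gene pair were divided within a library. Each UMI marks 1 transcript end, so no scaling by length was applied, but how well each paralog was captured was not measured. Cplx1 made up 96.8 ± 1.03% (SD, n = 6 WT libraries) of Cplx1 and Cplx2 in PVALB-like cells, 87.8 ± 3.61% in NGFC-like cells and 68.0 ± 7.97% in SST-like cells. The PVALB-like share ran from 95.6 to 98.0%, above every NGFC-like library (81.9 to 92.0%), and these lay above every SST-like library (54.7 to 78.2%). Syt2 made up 2.35 ± 1.46% of Syt1 and Syt2 in PVALB-like cells, 0.366 ± 0.282% in SST-like cells and 0.00923 ± 0.0179% in NGFC-like cells, where 4 of 6 libraries held none. Of Vamp1 and Vamp2, Vamp1 took 4.09 ± 2.60%, 3.45 ± 2.17% and 0.496 ± 0.267% in PVALB-like, SST-like and NGFC-like cells.

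Of 9 class comparisons of these shares, 8 went 1 way in all 6 libraries (2-sided exact permutation p = 0.0312 by sign flips, the smallest 6 libraries allow, adjusted p = 0.0352). The exception was Vamp1 between PVALB-like and SST-like cells, with a difference of 0.639 points, higher in 4 libraries and lower in 2 (exact p = 0.188). These tests take the 6 libraries as independent, but cortex and hippocampus libraries of the same replicate number may share their mice. With the regions averaged by replicate number, all 9 comparisons had an exact p of 0.25, the smallest that 3 replicates allow. The class fits in edgeR likewise take the 6 libraries as independent blocks. Hippocampus WT replicate 2 had the highest Vamp1 share in every class, 7.81% in SST-like and 8.71% in PVALB-like cells, where Vamp2 was at its lowest.

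**Figure D2:**
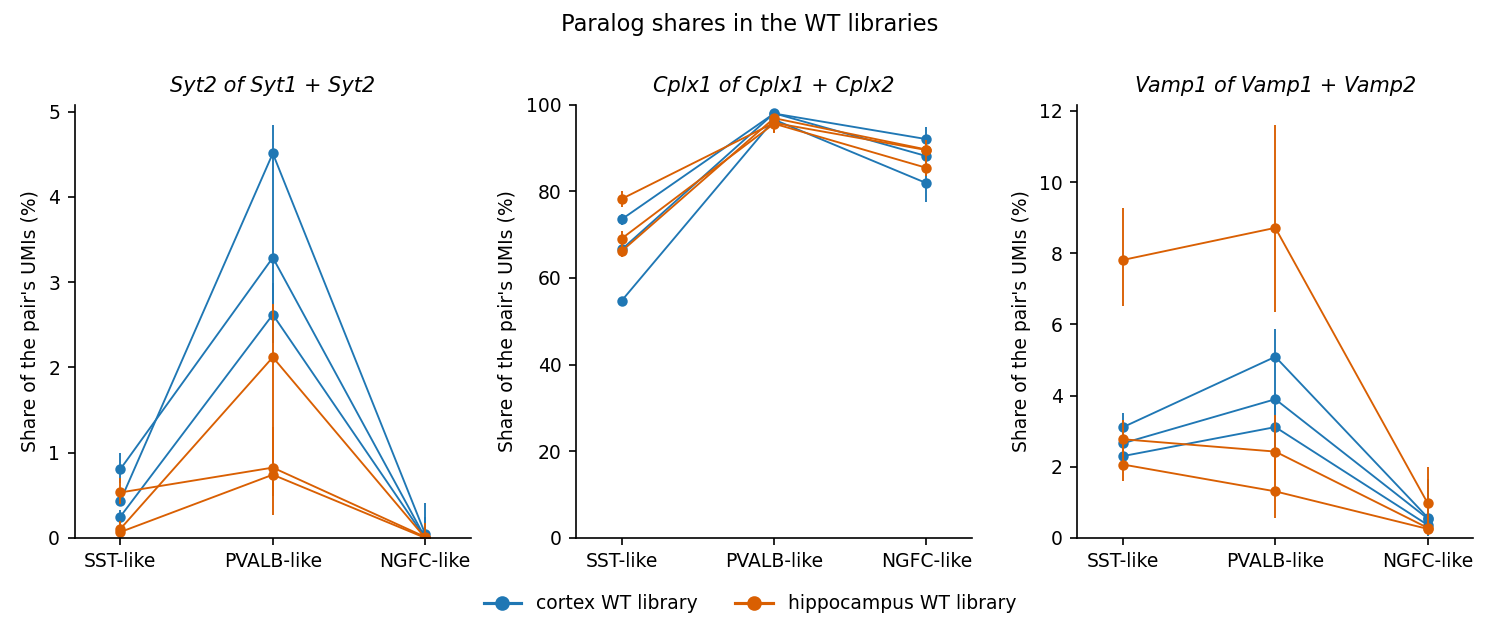
Share (%) of the UMIs of a paralog pair that fell to Syt2, Cplx1 or Vamp1 in each of the 6 WT libraries, by interneuron class; lines join the classes of a library and bars are 95% exact binomial intervals. Cplx1 ran from 95.6 to 98.0% in PVALB-like cells and from 54.7 to 78.2% in SST-like cells.

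The classes were not uniform inside. Among the PVALB-like clusters, Syt2 belonged to the one led by Cartpt, Tac1 and Pvalb, with 82.8 ± 55.7 CPM (SD, n = 6 WT libraries, lowest 23.0). The cluster led by Pthlh, with 222 WT cells, had 4.66 ± 4.91 CPM (highest 11.4), and the small one led by Crabp1 had no Syt2 UMI in 39 WT cells. In the same order Cplx1 had mean levels of 1379, 992 and 919 CPM and Cplx2 of 41.7, 27.7 and 82.9 CPM, the last with a range of 19.2 to 204 over 3 libraries. Genes of a cluster are given as a description, without a test.

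The TH-like cells held opposite complexin patterns. The cluster led by Th and Nr4a2 had 12.5 ± 6.52 CPM of Cplx2 (SD, n = 5 WT libraries, highest 20.4), 1160 ± 287 of Cplx1 and 62.2 ± 36.3 of Syt2. The PVALB-like cluster led by Cartpt overlapped with it in all 3 genes, with Cplx2 at 16.4 to 71.9 CPM. In the cluster led by Th there were also 530 ± 396 CPM of Pvalb and 1104 ± 337 of Tac1. The cluster led by Crh and Tac2 had 218 ± 89.4 CPM of Cplx2 (lowest 142), 544 ± 119 of Cplx1 and 1.82 ± 1.98 of Syt2. It also had 20.8 ± 10.4 CPM of Pvalb and 12650 ± 2794 of Sst. Its Th stood at 58.9 ± 28.2 CPM. The cluster led by Th had 173 ± 110 CPM of Th and 1864 ± 670 of Sst. Mean Syt10 was 21.4 CPM in the cluster led by Crh and 9.9 CPM in that led by Th, with overlap. Fits without the TH-like cells leave out both clusters, and the part of each was not tested.

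Among interneuron clusters, Snap25 had its lowest mean level in the SST-like cluster led by Npy, Nos1 and Chodl, a type of neuron that sends long-range axons. In the 4 WT libraries with at least 10 of these cells it measured 736, 545 and 350 CPM in cortex WT replicates 1, 2 and 3 and 483 CPM in hippocampus WT replicate 2. In each of these libraries the other interneuron clusters with at least 10 cells, 6 to 10 of them, lay higher, at 974 to 3564 CPM. In the null libraries with enough cells it measured 617 CPM (cortex replicate 2) and 773 CPM (hippocampus replicate 2), also below the other clusters with enough cells of the same library. The log2 difference from the remaining SST-like cells of the library lay between -1.94 and -1.49 in these 6 libraries. Over the same libraries Vamp2 differed by -0.21 to 0.15 and Snap47, a relative of Snap25, by -0.33 to 0.13. Cplx1 was lower too, by -1.54 to -0.63, and Syt2 had 1 UMI in 250 WT cells. The cluster was singled out after its values were seen, from all clusters and 10 genes, and no test was made of it.

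**Figure D3:**
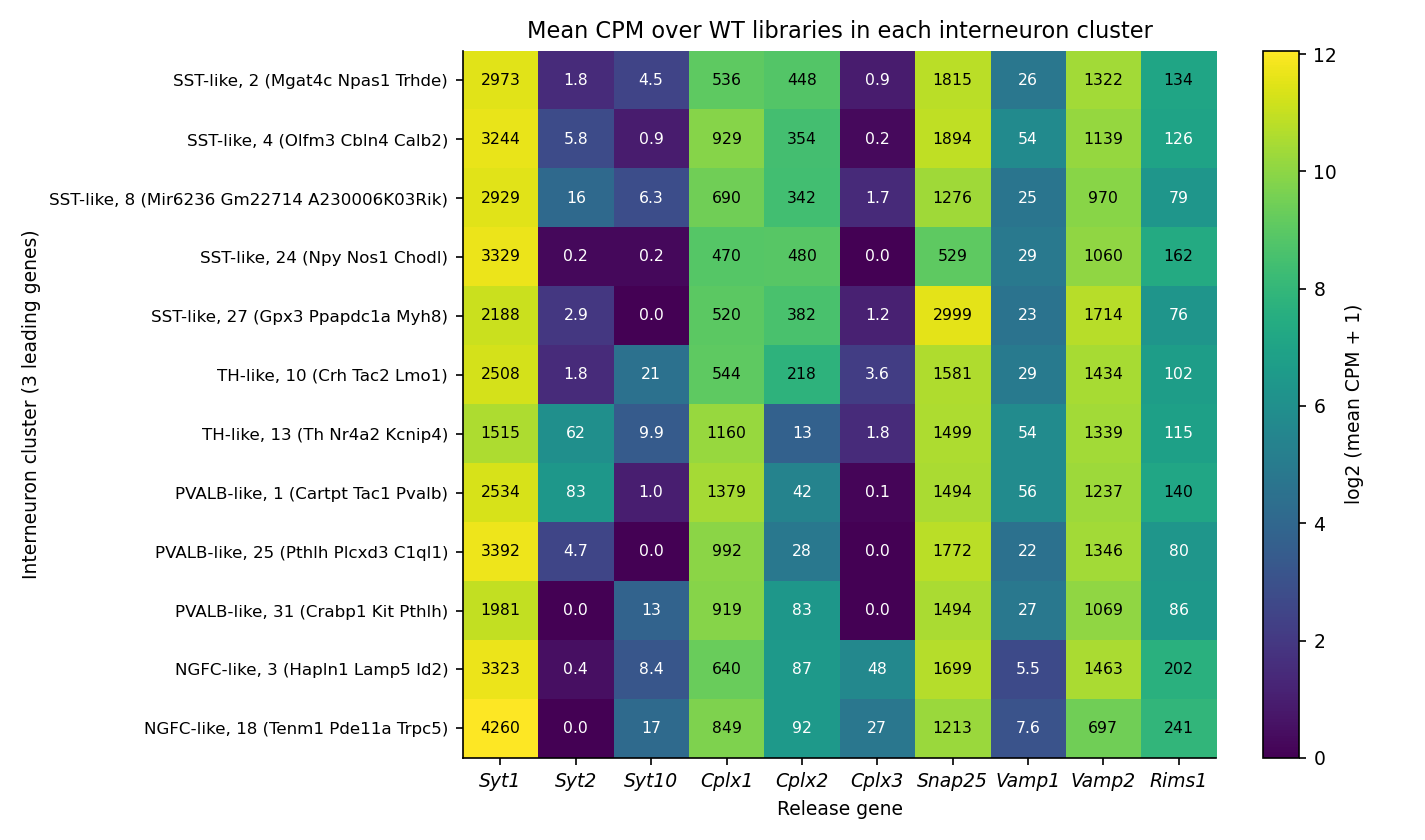
Mean CPM over WT libraries of the 10 release genes (columns) in each of the 12 interneuron clusters (rows, with class, cluster number and 3 leading genes); colours give log2 of mean CPM + 1. Snap25 stands at 529 CPM in the cluster led by Npy, Nos1 and Chodl against 1213 to 2999 in the others, and Cplx2 at 12.5 CPM in the cluster led by Th.

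The share of cells with a UMI was also taken at a fixed depth. WT cells with at least 1000 UMIs were thinned to 1000, and oligodendrocyte-like cells served as background, since they should lack most of these genes. Syt2 had a UMI in 113 of 1600 PVALB-like cells (7.06%, 95% exact interval 5.86 to 8.43), in 45 of 4592 SST-like cells (0.98%) and in 0 of 1172 NGFC-like cells, which allows a share of up to 0.256%. These intervals pool the cells of 6 libraries and cover counting error only, and by library the PVALB-like share ran from 1.22 to 8.01% and the SST-like share from 0 to 2.11%. In oligodendrocyte-like cells it was 0.0471% of 4242. Cplx2 was seen in 27.4% of SST-like, 10.3% of NGFC-like, 3.44% of PVALB-like and 0.401% of oligodendrocyte-like cells, and Cplx3 in 3.33% of NGFC-like and 0.0236% of oligodendrocyte-like cells. Cells with fewer UMIs were left out, 323 SST-like, 21 PVALB-like, 150 NGFC-like and 535 oligodendrocyte-like ones. Median depths before thinning were 6577.5 UMIs in SST-like, 6860.5 in PVALB-like, 4059 in NGFC-like and 4247 in oligodendrocyte-like cells.

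Of 30 pairs of gene and class, 25 had an interval over pooled cells above that of oligodendrocyte-like cells. In 23 pairs the share of each WT library lay above that of each library's oligodendrocyte-like cells, and the 2 pairs lost by this measure were Syt2 in SST-like and Syt10 in NGFC-like cells. The other pairs were Syt2 and Vamp1 in NGFC-like, Syt10 and Cplx3 in PVALB-like and Cplx3 in SST-like cells, which read as background at this depth. Vamp2 had the highest background, with 13.7% of oligodendrocyte-like cells against 66.6 to 67.5% in the interneuron classes. Both genes of a pair were often seen in 1 cell where both were common: 12.9% of SST-like cells had UMIs of Cplx1 and Cplx2, and of the 113 PVALB-like cells with Syt2, those that also had Syt1 were 6.0% of the class and those without it 1.06%.

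Across 11 named cell classes, without endothelial-like cells, of which 1 WT library had enough (26 cells), the release genes fell into those shared by neurons and those of a class. Syt1 was highest in NGFC-like cells (3697 ± 1087 CPM, SD, n = 6 WT libraries), then SST-like without TH-like cells, PVALB-like, TH-like and glutamatergic-like cells (1780 ± 481, n = 5), with overlapping neighbours all along. OPC-like cells came next at 47.3 ± 45.6, with no overlap. Snap25 and Vamp2 had the same step between neurons and glia, from 1548 ± 445 to 105 ± 38.2 and from 845 ± 316 to 161 ± 40.6 CPM, as did Cplx1 (242 ± 124 to 51.4 ± 29.5). Rims1 stepped from glutamatergic-like cells (106 ± 15.0) to OPC-like cells (34.2 ± 10.4) and from these to committed precursor-like cells (9.27 ± 3.65).

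The class-bound genes had other orders. Syt2 went from PVALB-like (63.8 ± 39.9 CPM) through TH-like (25.9 ± 15.0) to SST-like cells (3.69 ± 2.01), each range overlapping the next. For Cplx2 the means of glutamatergic-like cells (571 ± 739, from 52.0 to 1872 CPM) and of SST-like cells without TH-like cells (404 ± 191) were the highest, with overlap. Their order rested on the library at 1872 CPM, and the medians, 278 and 348 CPM, ran the other way. A step followed from SST-like to TH-like cells (134 ± 57.4). Cplx3 was highest in NGFC-like cells (44.1 ± 20.5), and its next level, in committed precursor-like cells, ranged from 0.781 to 56.3 CPM. Vamp1 was highest in PVALB-like, TH-like and SST-like cells, with choroid plexus-like cells among them at 0 to 111 CPM. Syt10 had its highest mean in choroid plexus-like cells, from 10 UMIs in 157 cells with a range of 5.24 to 333 CPM over 3 libraries, then TH-like (17.0 ± 13.1) and NGFC-like cells (11.2 ± 10.2), all overlapping.

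Genes with the most similar pattern were sought over 21 pools of WT cells by named class and region, as Pearson r of log2 CPM over 11792 genes. The pools share libraries and depth, and r is a description. Syt2 was most like Gm26902 (0.914), Tac1 (0.907) and Mustn1 (0.898), and Cplx2 like Fxyd2 (0.945), Cnr1 (0.923) and Negr1 (0.921). Cplx3 had lower values, with Adarb2 (0.775), Necab2 (0.771) and Tmem261 (0.767), as had Syt10 with Cpne7 (0.821), Sema3c (0.817) and 1110058L19Rik (0.784). For Vamp1 the nearest were Nnmt (0.884), Casz1 (0.884) and Lypd6 (0.883). The genes of all neurons had closer matches: Snap25 with Kif5c (0.987), Celf4 (0.984) and Rbfox1 (0.983), Syt1 with Atp6v0c (0.983) and Chd3os (0.981), Vamp2 with Klc1 (0.984), Tcf25 (0.982) and Micu3 (0.977), Cplx1 with Clstn3 (0.975) and Elavl2 (0.967), and Rims1 with Tmem59l (0.971), Slitrk4 (0.971) and Zranb2 (0.969).

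No release gene passed the thresholds between null and WT libraries. The comparison of null with WT libraries asks whether interneurons without NMDA receptors change their release machinery. The fitted log2 changes of Rims1 were negative and those of Vamp1 positive in each class and region, but none of them passed the test. The smallest edgeR adjusted p of the release genes was 0.957. With replicate as a block in edgeR none passed either, and their smallest adjusted p was 0.318, for Cplx1 in hippocampal NGFC-like cells. Vamp1, Rims1 and Cplx2 were singled out after their values were seen. Of 60 combinations of gene, class and region, 9 had null and WT ranges that did not overlap, all from these genes. With so few libraries this can arise without a difference, and the share over all genes was not taken. Within cortical replicate 1 the log2 change of Rims1 was 0.06 in SST-like and 0.00 in PVALB-like cells.

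**Figure D4:**
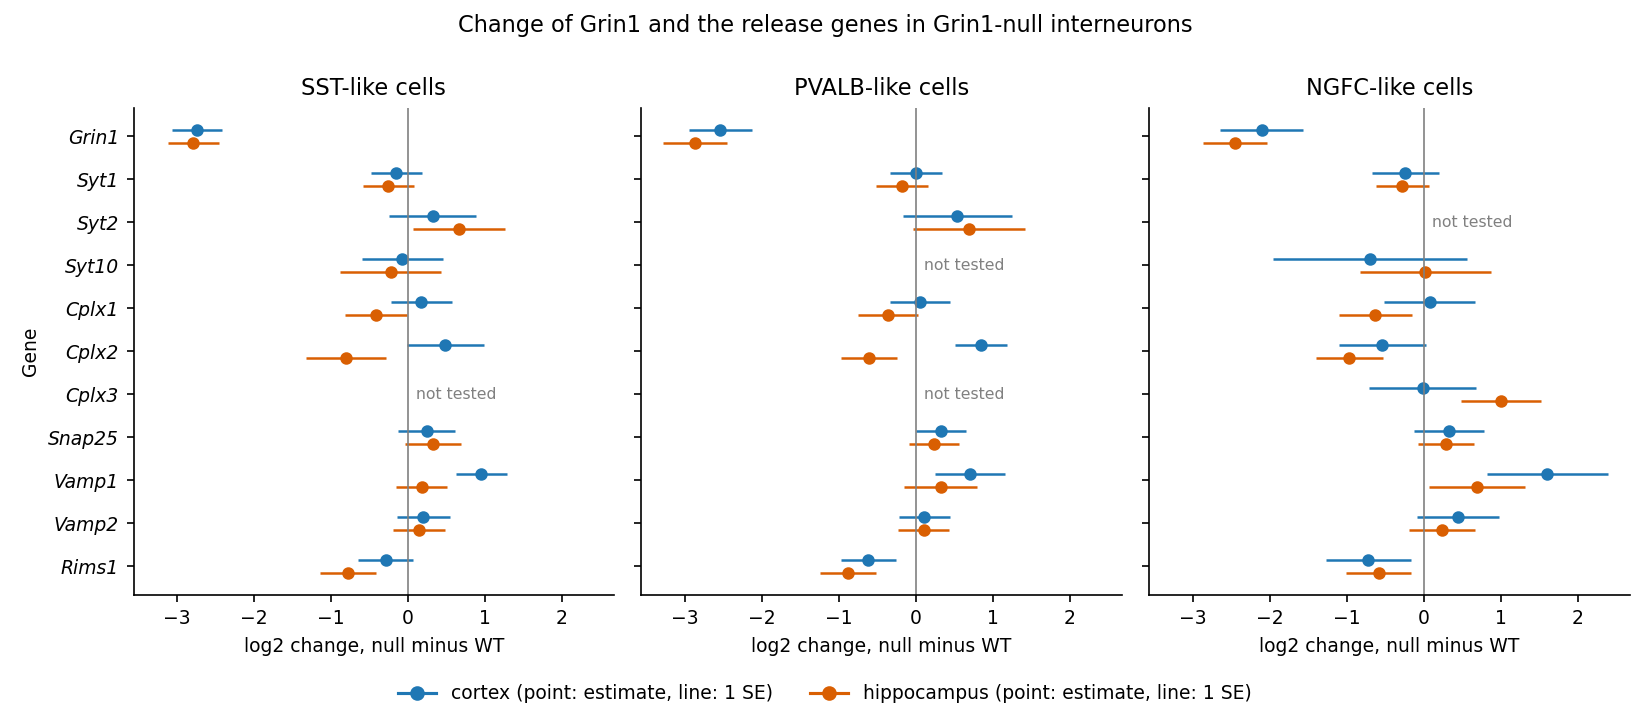
Change from WT to null on the log2 scale for Grin1 and the 10 release genes in each interneuron class, as edgeR estimates (points) with 1 SE (lines), in cortex (blue) and hippocampus (orange). Grin1 lies between -2.87 and -2.11, and Rims1 between -0.88 and -0.29.

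In cortical SST-like cells Vamp1 measured 38.5, 40.6 and 27.3 CPM in WT replicates 1, 2 and 3 and 77.8 and 59.6 CPM in null replicates 1 and 2. Both null libraries lay above the WT libraries, and the log2 change of 0.95 ± 0.327 (SE) had an adjusted p of 1.0 with edgeR. In this class the cluster led by Th, with 54.4 CPM of Vamp1 in WT, held 82 of 1176 SST-like cells in cortex WT replicate 2 and 169 of 715 in cortex null replicate 2, and the cluster led by Npy, Nos1 and Chodl held 137 and 148. In replicate 1 they held 96 and 33 of 627 cells in WT and 8 and 3 of 110 in null. Without the TH-like cells the change was 0.91 ± 0.374, and without the latter cluster it was 0.93 ± 0.339. The cluster led by Gpx3, at 23.1 CPM of Vamp1 in WT, held 221 cells of WT replicate 1 but 9 of null replicate 1, and its part in the change was not tested. In the hippocampus the same class gave 35.1, 59.5 and 32 CPM in WT and 36.8 and 55.7 in null, with overlap and a change of 0.18 ± 0.333. PVALB-like cells had 47.2, 65.5 and 42.1 CPM in cortical WT and 103 and 70.2 in cortical null libraries (0.70 ± 0.458).

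Rims1 in hippocampal SST-like cells measured 96.3, 184 and 102 CPM in WT replicates 1, 2 and 3 and 55.6 and 89.2 CPM in null replicates 1 and 2. In hippocampal PVALB-like cells it measured 112, 168 and 90.4 CPM in WT and 56.2 and 76.4 in null. Null libraries lay below WT libraries in both, with log2 changes of -0.79 ± 0.364 and -0.88 ± 0.360 (SE, adjusted p of 0.973 and 1.0). Within replicates 1 and 2, which match in chemistry, the changes were -0.78 and -1.04 in SST-like and -0.99 and -1.12 in PVALB-like cells. With replicate as a block the fitted changes were -0.85 ± 0.253 and -0.95 ± 0.314 (SE, edgeR adjusted p of 0.365 and 0.531), again not called. The shallow cluster led by Mir6236 held 593 of 835 SST-like cells of hippocampus WT replicate 2, the highest library, but 60 of 836 of null replicate 2. Without this cluster, an alternative chosen after seeing the data, the fitted change was -0.81 ± 0.371 in SST-like cells.

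The fitted changes of Cplx2 had opposite signs in the regions in SST-like cells, and in PVALB-like cells as long as the cluster led by Crabp1 was counted, and were negative in both regions in NGFC-like cells, with no call. In PVALB-like cells it measured 27.8, 29.5 and 34.2 CPM in cortical WT and 42.5 and 62.4 in cortical null libraries, against 49.0, 71.6 and 33.5 in hippocampal WT and 38.9 and 30.8 in hippocampal null libraries. The changes were 0.85 ± 0.334 and -0.61 ± 0.367 (SE), and the difference between the regions had an edgeR adjusted p of 1.0. In NGFC-like cells it measured 71.8, 105 and 97.8 CPM in cortical WT and 63.4 in the cortical null library, and 84.0, 170 and 74.4 in hippocampal WT and 68.8 and 43.9 in hippocampal null libraries. Null libraries lay below WT libraries there, with changes of -0.54 ± 0.566 and -0.97 ± 0.440. In hippocampus the cluster led by Tenm1 and Pde11a held 510 of 512 NGFC-like cells of WT replicate 2, the highest library, and 35 of 673 of null replicate 2, and its part was not tested. Of 50 combinations of gene, class and region with both replicates, 26 had opposite signs of change in replicates 1 and 2. A change of 0 did not count as opposite, and the share over all genes was not taken.

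The make-up of the cortical PVALB-like class differed between the genotypes. The cluster led by Cartpt held 434 of 513 and 606 of 655 of its cells in cortex WT replicates 2 and 3, but 19 of 28 in cortex null replicate 1, and of the 256 cells of cortex null replicate 2 the clusters led by Pthlh and Crabp1 held 74 and 59. In WT libraries the cluster led by Cartpt had mean levels of 56.0 CPM of Vamp1 and 140 CPM of Rims1, against 21.6 and 80.2 CPM in the cluster led by Pthlh. Without the cluster led by Crabp1, which had 82.9 CPM of Cplx2 in WT, the cortical change of Cplx2 turned to -0.35 ± 0.456 (SE), the hippocampal change was -0.91 ± 0.460, and the difference between the regions was -0.56 ± 0.642 instead of -1.46 ± 0.497. The changes of Vamp1 and Rims1 in cortex were then 0.62 ± 0.480 and -0.70 ± 0.365.

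Markers of the other classes also differed in these cells. Summed over 7 genes, NGFC-like markers stood at 223, 173 and 170 CPM in PVALB-like cells of cortex WT replicates 1, 2 and 3 and at 637 and 864 CPM in those of cortex null replicates 1 and 2, with Hapln1 the most abundant in null. SST-like markers stood at 287, 1008 and 737 CPM in WT and at 875 and 1582 CPM in null, most of it Sst. Their part in the genotype values was not tested.

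No release gene was called in cortex or hippocampus in any class, with 9 tested in SST-like cells (not Cplx3), 8 in PVALB-like cells (not Cplx3 or Syt10) and 9 in NGFC-like cells (not Syt2). edgeR called 0.0102% of genes (1 of 9758) in cortical PVALB-like cells and 0% in the 5 other comparisons. At an unadjusted p under 0.05, 4 of the 52 tests of release genes passed, and by class 285 and 469 of 12856 genes in cortical and hippocampal SST-like cells, 357 and 309 of 9758 in PVALB-like cells, and 133 and 321 of 9623 in NGFC-like cells. DESeq2 also called 0 release genes, with 2, 2, 15, 1, 0 and 1 genes called in that order. The interaction of genotype with region called 0% of genes in each class in edgeR, with 67, 107 and 41 genes at an unadjusted p under 0.05 in SST-like, PVALB-like and NGFC-like cells, and 0 in DESeq2. Of 58, 51 and 50 other release genes tested, none was called.

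Without a filter on low counts 1 other release gene, Cadps2, was called higher in null cortex, in SST-like cells (1 of 61 tested, 0.0951% of all genes called) and in PVALB-like cells (1 of 60, 0.286%). It measured 6.64, 8.56 and 11.6 CPM in SST-like cells of cortex WT replicates 1, 2 and 3 and 10.0 and 42.8 CPM in those of null replicates 1 and 2, so that 1 null library was high. In PVALB-like cells it stood at 0 to 1.82 CPM in WT and at 0 and 10.8 CPM in null, again high in replicate 2 alone. The log2 changes were 1.68 ± 0.364 and 2.80 ± 0.657 (SE, edgeR adjusted p of 0.00437 and 0.00784). Among SST-like cells the change was 0.19 ± 0.521 in the filtered fit without the TH-like cells, against 1.68 ± 0.567 with them.

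Grin1 itself, the deleted gene, passed none of the 6 comparisons at an adjusted p of 0.01. It passed 3 at 0.05 and 5 with DESeq2. Cortical NGFC-like cells had 1 null library, since cortex null replicate 1 held 4 of them, and that library is assumed to vary like the others.

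No release gene passed the test between the regions in WT cells. The comparison of hippocampus with cortex asks whether interneurons of 1 lineage differ by where they settle. With edgeR the count was 0 of 9 tested in SST-like cells (0.0251% of 11965 genes called, 890 at an unadjusted p under 0.05), of 8 in PVALB-like cells (0.0567% of 8825, 387 at that level) and of 7 in NGFC-like cells (0% of 7841, 208). DESeq2 called 0 of them too, with 135, 24 and 4 genes called (1.13%, 0.272% and 0.051%). With replicate as a block 399 of 12465, 49 of 9336 and 4 of 8437 genes were called (3.2%, 0.525% and 0.0474%). These fits tested 9, 8 and 8 of the release genes and again called 0 of them.

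Other genes of the release machinery did pass with replicate as a block, 3 of 58 tested in SST-like and 1 of 50 in PVALB-like cells, where edgeR without the block called 0. In SST-like cells Unc13c (log2 difference -2.40 ± 0.244, SE), Syt6 (-2.25 ± 0.349) and the vesicle glycoprotein gene Sv2b (-4.84 ± 0.823) were lower in hippocampus. In PVALB-like cells Rph3a was higher (1.76 ± 0.227). DESeq2 called Unc13c (-2.37 ± 0.373) and Rph3a (1.77 ± 0.381). Without a filter on low counts edgeR called these 4 genes and Cadps2 in PVALB-like cells (3.59 ± 0.661), 3 of 60 in SST-like (0.704% of all genes) and 2 of 60 in PVALB-like cells (0.457%). With the adjusted p set at 0.05 it called Unc13c alone of them.

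The classes lay in different clusters in the regions. Unc13c is a leading gene of the cluster led by Mgat4c, which held 72 of 627, 376 of 1176 and 697 of 1624 SST-like cells in cortex WT replicates 1, 2 and 3 and 20 of 298, 47 of 835 and 104 of 355 in hippocampus. Inside that cluster Unc13c measured 110 ± 55.3 CPM in cortex and 26.7 ± 18.2 in hippocampus (SD, n = 3 WT libraries each), without overlap, and in the cluster led by Olfm3 it measured 95.8 ± 20.7 and 6.85 ± 8.72. Syt6 and Sv2b had their highest cortical levels in the cluster led by Npy, Nos1 and Chodl, with means of 65.6 and 34.3 CPM, which held 33, 137 and 59 cells in cortex and 1, 21 and 2 in hippocampus. The part of this cluster in their differences was not tested. In the cluster led by Olfm3, Syt6 measured 10.4 ± 2.31 CPM in cortex and 0.939 ± 1.63 in hippocampus, without overlap. In the one led by Crh and Tac2 it had means of 4.09 and 2.89 CPM, with overlap. Rph3a measured 23.8 ± 3.72 CPM in cortex and 86.4 ± 40.7 in hippocampus in the PVALB-like cluster led by Cartpt, without overlap, and had means of 240 and 391 CPM in the one led by Pthlh, with overlap.

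Syt10 in SST-like cells and the Syt2 share in PVALB-like cells are given here because, once the values were seen, their regions did not overlap. They were the only ones among 30 pairs of gene and class and among 9 shares by class. With 3 against 3 libraries this can arise without a difference, and the share over all genes was not taken. Syt10 measured 5.31, 8.56 and 6.67 CPM in cortex and 4.71, 4.43 and 1.37 CPM in hippocampus WT replicates 1, 2 and 3, so that the regions did not overlap. The cluster led by Crh and Tac2 had 21.4 ± 17.7 CPM of Syt10 (SD, n = 5 WT libraries), against 2.11 ± 1.31 (n = 6) in SST-like cells without TH-like cells. It held 110 of 627, 113 of 1176 and 207 of 1624 SST-like cells in cortex WT replicates 1, 2 and 3. In hippocampus WT replicates 1, 2 and 3 it held 40 of 298, 1 of 835 and 69 of 355. Its part in the regional values was not tested. Hippocampus was lower by -0.14, -0.82 and -1.70 on the log2 scale within replicates 1, 2 and 3. The fitted difference was -1.11 ± 0.481 (SE, adjusted p = 0.651), and with replicate as a block it was -1.18 ± 0.399, again not called. Syt2 made up 3.29, 2.62 and 4.51% of Syt1 and Syt2 in cortical PVALB-like cells and 0.741, 2.12 and 0.824% in hippocampal ones, again without overlap. An exact permutation test gave p = 0.1, the smallest that 3 against 3 libraries allow, with an adjusted p of 0.9 over 9 tests. Among null libraries the shares were 8.53 and 2.13% in cortex and 0.969 and 4.07% in hippocampus, with overlap. None of the 15 tests of genotype on a paralog share passed (exact adjusted p of 1.0, smallest raw p of 0.2 where 0.1 is the lowest possible).

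In GRCm38, with the gene ends of GENCODE vM21, Syt2 (chromosome 1, 134646677 to 134762593, plus strand) and Rims1 (chromosome 1, 22286251 to 22805994, minus strand) lay on the same chromosome. Genes on the opposite strand overlap Syt2 (Ppp1r12b), Vamp1 (Tapbpl, Cd27 and Mir8113), Snap25 (Gm14053) and Rims1 (Gm26866), all in the count files. Syt1 is overlapped by Gm47472 on the opposite strand and by Gm5136 and Gm47477 on its own strand, which are not in the count files. Vamp1 spans 125215551 to 125245964 of chromosome 6 and Cplx1 spans 108518554 to 108550024 of chromosome 5, on the minus strand.

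Promoters are shown for Syt2, Cplx1 and Vamp1, the release genes that stood higher in PVALB-like than in SST-like cells, to let their sequences be compared. RefSeq (GRCm38.p6) gave 250 bases before to 50 after the start for 8 of the 10 genes. The motif AAGGTCA, or TGACCTT on the other strand, was chosen with the class differences known. It is the extended core of the sites bound by estrogen-related receptors, a family known from genes of energy supply, and is given in capitals. It was in 1550 of 32851 promoters (4.72%), and among the 10 promoters of the release genes in 1, a start of Syt2, at base 84. A match is not a known site, and no match says only that these letters are not in this window.
Syt2, chr1:134646362-134646661, plus strand: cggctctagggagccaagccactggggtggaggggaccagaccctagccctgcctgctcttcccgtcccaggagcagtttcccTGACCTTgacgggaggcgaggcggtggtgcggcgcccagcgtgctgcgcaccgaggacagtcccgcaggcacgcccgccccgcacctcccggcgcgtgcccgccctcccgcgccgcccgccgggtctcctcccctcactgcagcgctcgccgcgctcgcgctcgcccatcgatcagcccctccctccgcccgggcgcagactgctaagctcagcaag
Syt2, chr1:134709050-134709349, plus strand: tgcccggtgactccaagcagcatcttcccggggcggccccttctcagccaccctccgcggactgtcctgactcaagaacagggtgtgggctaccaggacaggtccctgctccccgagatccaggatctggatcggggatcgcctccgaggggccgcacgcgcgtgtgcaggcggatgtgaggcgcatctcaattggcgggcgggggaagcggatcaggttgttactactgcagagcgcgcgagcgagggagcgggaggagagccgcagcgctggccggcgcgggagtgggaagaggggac
Cplx1, chr5:108549978-108550277, minus strand: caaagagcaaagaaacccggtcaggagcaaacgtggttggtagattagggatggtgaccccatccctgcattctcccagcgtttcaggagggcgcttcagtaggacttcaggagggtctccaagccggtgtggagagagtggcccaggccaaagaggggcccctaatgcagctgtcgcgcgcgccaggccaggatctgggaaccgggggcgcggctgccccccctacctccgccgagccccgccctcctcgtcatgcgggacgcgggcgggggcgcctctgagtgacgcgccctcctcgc
Vamp1, chr6:125215331-125215630, plus strand: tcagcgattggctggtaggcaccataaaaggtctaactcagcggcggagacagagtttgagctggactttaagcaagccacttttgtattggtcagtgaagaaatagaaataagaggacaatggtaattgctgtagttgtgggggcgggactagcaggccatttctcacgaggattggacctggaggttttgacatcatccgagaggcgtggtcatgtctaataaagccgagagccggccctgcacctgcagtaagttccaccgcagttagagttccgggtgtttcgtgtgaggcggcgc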

How the data were processed

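The deposited matrices hold raw UMI counts per gene and cell, which the authors made with Cell Ranger 2.1.1 (per the labels) on mm10 with extended gene ends. The matrix headers name a later version of Cell Ranger. The libraries of the first replicate, and hippocampus WT replicate 3, hold fewer genes per cell than the methods list. Counts may have been lowered before deposit, for instance by equalising depth between libraries, but this was not tested. The depths given here are those of the deposited counts. Libraries were told apart by barcode suffix and matched to replicates by their cell numbers. A cell was kept if it had 200 to 6000 detected genes and less than 30% of its UMIs from mitochondria (26201 of 26987). Seurat 5.3.0 integrated the 4 matrices by canonical correlation and clustered cells on 2000 features, 25 dimensions and resolution 1.0, giving 34 clusters. Clusters were named by at least 3 markers of a list and grouped into classes. The release genes were kept out of the features, except Pclo, which stands under 2 identifiers and was not followed. Vamp7 is not in the files, so 61 of the 63 other release genes were followed. Scrublet in scanpy 1.11.5 marked 289 cells (1.10%), which were kept.

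UMIs were summed per library and class (at least 10 cells) and tested in edgeR 4.0.16 under R 4.3.3, with quasi-likelihood tests, TMM scaling and filterByExpr. Genotype and region fits used group means, and class fits had the library as a block. Benjamini-Hochberg adjustment ran over all genes tested, and a call needed an adjusted p under 0.01 and an absolute log2 change of at least 0.144. Shares were compared by exact permutation tests in SciPy 1.17.1 under Python 3.11.15. Intervals are 95% and cover counting error only. Likeness used pools of at least 50 cells and genes reaching 20 CPM, with 1 CPM added before logs. Figures were drawn with matplotlib 3.10.9.

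Named in every comparison were the 10 release genes. Of the other release genes, the 5 largest rises and 5 largest falls past the thresholds were named, and for likeness up to 3 genes from those with the highest r. These members and lists were chosen with earlier results of these data known. The rule for the cluster led by Oxt was set after seeing the data.

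Alternatives were DESeq2 1.42.0, library-size scaling, no filter, an adjusted p of 0.05, mitochondrial genes left out, no library block, replicate as a block, only the 2 groups compared, sums of at least 20 cells, resolutions 0.6 and 1.4, no integration and release genes among the features. Others were a stricter choice of cells (1000 genes or more, 10% mitochondrial UMIs or less), doublets left out, thinning to 500 UMIs or none, the classes without TH-like, Crabp1-led or Chodl-led cells, and each library left out in turn. Chosen after seeing the data were the SST-like class without its shallow cluster, version 3 libraries alone, and leaving out both hippocampus WT replicate 2 and cortex null replicate 1.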

Additional observations from a re-analysis of the deposited data

Results flagged for a closer look

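Of 39 sets of paralog shares looked at for a library far from the rest, 2 had one, where chance alone marks about 1 set in 20. The Syt2 share of Syt1 and Syt2 in NGFC-like cells was 0.0448% in cortex WT replicate 3, from 1 UMI, against 0 to 0.0105% in the other WT libraries. The Vamp1 share of Vamp1 and Vamp2 in SST-like cells was 7.81% in hippocampus WT replicate 2, the shallowest library, against 2.06 to 3.11% in the others, and the part of depth in this was not tested.

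Of 30 combinations of gene and class comparison looked at for opposite directions in the regions, 1 had them. The within-library log2 difference of Cplx1 between NGFC-like and SST-like cells was positive in each cortical WT library (mean 0.20, from 0.06 to 0.33) and negative in each hippocampal one (mean -0.16, from -0.22 to -0.04). The regions differed by -0.36, hippocampus minus cortex, and this difference was not tested.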

How the results depend on the processing

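The count of release genes called between classes, 21 over the 3 comparisons, lay between 10 and 21 over 24 alternatives. It was 10 without the library as a block, a fit in which Syt10, with 3 of the 21 calls, was not tested, and the cause of the other losses was not tested. Leaving out 1 library at a time gave 16 to 20. Syt10 was tested in 21 of the 24 alternatives, and its 3 calls are missing from the count in the others. The counts for null against WT stayed at 0 over 30 alternatives, for the difference between regions of that change over 29, and for hippocampus against cortex over 25, each with 0 to 0 on leaving out a library. Of 9 class comparisons of paralog shares, 8 went 1 way in every library in each of 16 alternatives (8 to 8 on leaving out a library), and 25 to 27 of 30 pairs of gene and class lay above the background in 2 alternatives of depth. The log2 difference of Cadps2 between PVALB-like and SST-like cells turned to 0.20 without the TH-like cells and to 1.02 without integration, where it was called in the opposite direction, and the cause was not tested. Depth limits what Syt2 and Vamp1 in NGFC-like cells and Cplx3 and Syt10 in PVALB-like cells can show, and the genotype tests had 2 null libraries per region or 1.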
